A study of Mus musculus with 4 samples.

Results

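The microglial identity genes described here are 9 of the 43348 genes in the deposited matrices. They were chosen by symbol as known markers of microglia, with no threshold on a measured value: C1qa, C1qb, C1qc, Cx3cr1, Csf1r, P2ry12, Tmem119, Trem2 and Tyrobp. All 9 were present in each of the 4 matrices and all 9 were detected. The cells were sorted for the red fluorescent protein TdTomato from mice carrying Nkx2.1-Cre and the Ai14 reporter, so that interneurons born in the medial ganglionic eminence (MGE), and their relatives, are labelled. Frontal cortex and hippocampus were dissected at postnatal days 18 to 20, with littermates of both sexes, and several animals were pooled per preparation. WT mice carried intact Grin1 alleles (Grin1wt/wt) and Grin1-null mice carried floxed alleles (Grin1fl/fl) that the Cre removes in MGE-derived cells only. Grin1 encodes the obligatory NMDA receptor subunit. Both genotypes carried the Cre and the reporter, and both were dissociated in buffers with tetrodotoxin, APV and actinomycin-D. Each region had 3 WT and 2 Grin1-null libraries, made by droplet sequencing (10x Genomics).

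Microglia are the resident macrophages of the brain. They come from yolk sac progenitors and not from the Nkx2.1 lineage, so they are not among the cells that the TdTomato sort was made for. C1qa, C1qb and C1qc encode the chains of C1q, the recognition protein that starts the classical complement cascade. Csf1r is the receptor for the survival factors CSF1 and IL-34, Cx3cr1 is the receptor for the neuronal chemokine fractalkine, and P2ry12 is the ADP receptor that directs processes towards injury. Trem2 is a lipid-sensing receptor that signals through the adaptor encoded by Tyrobp (DAP12). Tmem119 is a surface protein used to tell microglia from other macrophages.

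The upstream sequences of C1qb, Cx3cr1, P2ry12 and Trem2 are shown because the members were high together in 1 cell class. Each is the 150 bases before the gene's start on the gene's own strand (RefSeq, GRCm38.p6). For Cx3cr1 these bases lie inside the longer gene span of the GENCODE annotation given below. Capitals mark GAGGAA or its reverse complement TTCCTC, letters that the myeloid factor PU.1 is known to bind. C1qb lies at chr4:136886201-136886350 on the minus strand, Cx3cr1 at chr9:120068297-120068446 on the minus strand, P2ry12 at chr3:59262986-59263135 on the minus strand and Trem2 at chr17:48346251-48346400 on the plus strand.
C1qb: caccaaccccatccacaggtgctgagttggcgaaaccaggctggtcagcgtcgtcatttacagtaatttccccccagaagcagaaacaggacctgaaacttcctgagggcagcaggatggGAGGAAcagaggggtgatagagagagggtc
Cx3cr1: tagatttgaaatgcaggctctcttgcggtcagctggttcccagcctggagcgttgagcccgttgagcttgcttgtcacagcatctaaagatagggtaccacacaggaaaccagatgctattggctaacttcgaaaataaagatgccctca
P2ry12: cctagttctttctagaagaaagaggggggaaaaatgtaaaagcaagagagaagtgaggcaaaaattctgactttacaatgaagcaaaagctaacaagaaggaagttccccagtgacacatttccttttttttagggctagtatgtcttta
Trem2: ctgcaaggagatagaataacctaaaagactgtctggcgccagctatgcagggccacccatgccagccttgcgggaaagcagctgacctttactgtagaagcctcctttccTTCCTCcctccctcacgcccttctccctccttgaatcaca
The letters lie 30 bases upstream of the start in C1qb and 40 bases upstream in Trem2. In C1qc they lie 193 bases upstream, outside the length shown. Over the 250 bases upstream, read on both strands, GAGGAA was in 3 of the 5 members in the promoter set used and in 23.3% of its 32851 promoters. TGTGGT, letters known for RUNX factors, was in C1qc and Cx3cr1 and in 14.0% of all promoters. TGACTCA, letters known for AP-1, was in 0 of 5 members and in 4.46% of all promoters. Motifs were searched separately, so that matches may overlap. C1qa, Tmem119, Tyrobp and Csf1r were not in the promoter set used.

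In the annotation of the files' build (GENCODE vM21, GRCm38), the C1q genes form a cluster on the minus strand of chromosome 4. C1qb (ENSMUSG00000036905) spans chr4:136880129-136886187, C1qc (ENSMUSG00000036896) chr4:136889804-136893065 and C1qa (ENSMUSG00000036887) chr4:136895917-136898803. C1qb and C1qc are 3617 bases apart, and C1qc and C1qa 2852 bases. Trem2 (ENSMUSG00000023992, chr17:48346401-48354147, plus strand) lies 5769 bases before Treml1 on the same strand. Tyrobp (ENSMUSG00000030579, chr7:30413760-30417585, plus strand) lies 127 bases from Hcst on the opposite strand. Tmem119 (ENSMUSG00000054675) spans chr5:113793729-113800516 on the minus strand. P2ry12 (ENSMUSG00000036353, chr3:59216272-59262871, minus strand) lies inside Med12l, which is on the plus strand. Cx3cr1 (ENSMUSG00000052336, chr9:119901616-120069879, minus strand) overlaps Wdr48, Gorasp1, Ttc21a, Csrnp1 and Xirp1. Csf1r is ENSMUSG00000024621.

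The 10 libraries held 26987 barcodes and between 1488601 and 47338167 UMIs (unique molecular identifiers, 1 per captured transcript). Of these, 26201 cells passed the filters (177 to 4599 per library), and 88 barcode sequences occurred in more than 1 library. In interneurons, Grin1 lay at 145 to 240 CPM (UMIs of the gene scaled to a common total) in the 3 WT cortical libraries and at 27.4 to 36.9 CPM in the 2 Grin1-null cortical libraries. In the hippocampus it averaged 139 ± 19.4 CPM (SD, n = 3) in WT and 21.9 ± 4.35 CPM (SD, n = 2) in Grin1-null libraries. The genotypes did not overlap in either region, and the levels follow the labels. Microglia-like cells held 4 Grin1 UMIs in all.

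Microglia-like cells were 1 of 35 clusters. The cluster held 262 cells with a median of 1238.5 UMIs and 725 genes per cell. The members were kept out of the genes used for clustering, and the class was named from 16 other microglial markers, all of which reached the level required. Ctss, Fcrls, Fcer1g and Gpr34, all markers of that list, were among its 10 leading genes. WT cortical replicates 1, 2 and 3 gave 16, 38 and 104 microglia-like cells (1.25%, 0.992% and 2.65% of their cells). Grin1-null cortical replicates 1 and 2 gave 2 and 29 cells. WT hippocampal replicates gave 6, 1 and 42 cells, and Grin1-null hippocampal replicates gave 0 and 24 cells. The 6 libraries with at least 10 such cells (3 WT cortex, 1 Grin1-null cortex, 1 WT hippocampus and 1 Grin1-null hippocampus) were used for levels by library and for the comparisons. Their Grin1-null libraries are both replicate 2 and their WT hippocampal library is replicate 3. TdTomato transcript was found in 26.0% of microglia-like cells, against 89.1% of interneurons, which were deeper (median 7641 UMIs). Among interneuron transcripts, Sst (8973 CPM in interneurons) was found in 29.4% of microglia-like cells and Gad1 (1211 CPM in interneurons) in 3.82%. TdTomato was at 838 CPM in interneurons and 240 CPM in microglia-like cells, and where its transcript in these cells comes from was not tested.

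In microglia-like cells the 9 members made up 4.10% of all UMIs, 41017 CPM, against 5.42 CPM in all other cells. Of the 15055 UMIs of the members in kept cells, 14168 (94.1%) were in these 262 cells. Over the 6 libraries the members summed to 41306 ± 6059 CPM (SD, n = 6 libraries). The members were detected together cell by cell. All 9 were present in 131 of 262 microglia-like cells, 8 or 9 in 200 cells, and 0 cells lacked all of them. Depth moved with this count: all 9 were found in 61.4% of the 166 cells with at least 1000 UMIs and in 30.2% of the 96 shallower cells. Outside the class, 25609 of 25939 cells (98.7%) held no UMI of any member. The classes come from clustering the same cells, so these levels are a description with no test.

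**Figure D1:**
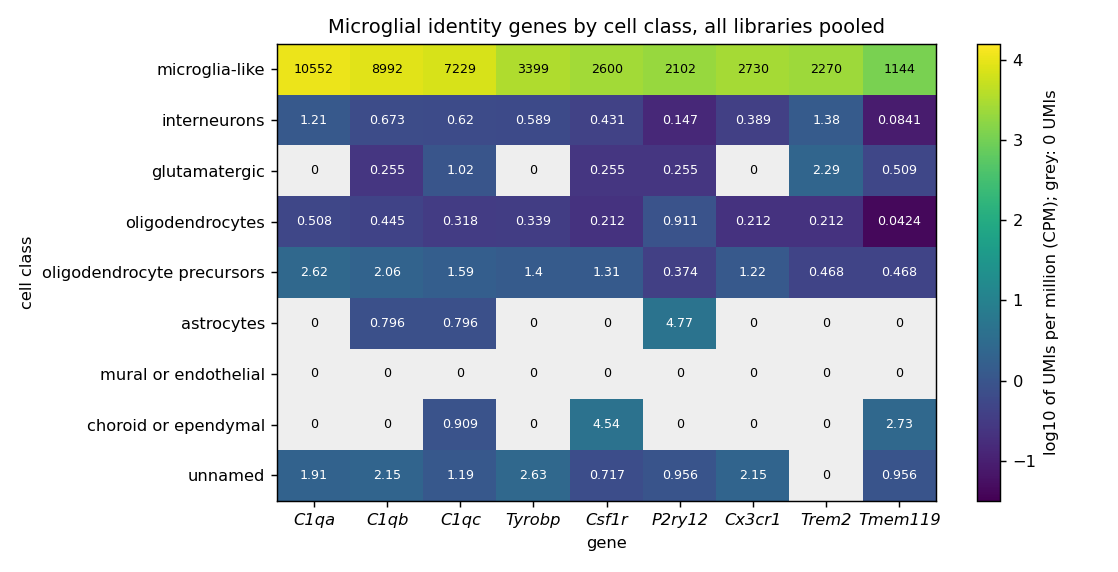
Level of each of the 9 genes (columns) in each cell class (rows), as CPM of UMIs pooled over all libraries and shown on a log colour scale, with grey for 0 UMIs. Every gene is highest in microglia-like cells, from 1144 CPM for Tmem119 to 10552 CPM for C1qa.

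The genes of C1q were the most abundant members. One UMI stands for 1 captured transcript end whatever the transcript's length, so CPM values were compared between genes directly. C1qa reached 11383, 8460 and 10566 CPM in WT cortical replicates 1, 2 and 3, 11066 CPM in Grin1-null cortex, 12039 CPM in WT hippocampus and 9520 CPM in Grin1-null hippocampus. The groups lie close together, with a ratio of 1.42 between the highest and the lowest library. C1qb lay at 11104, 5898 and 7924 CPM in the WT cortical libraries, 10963 CPM in Grin1-null cortex, 8811 CPM in WT hippocampus and 10176 CPM in Grin1-null hippocampus. C1qc ranged from 5094 CPM in WT cortical replicate 2 to 9706 CPM in WT cortical replicate 1. C1qa ranked first in 5 of 6 libraries, C1qb first in Grin1-null hippocampus, and C1qc came after both in all 6.

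The C1q chains differed little in their proportions. C1qa took 35.4% to 43.5% of C1q UMIs, C1qb 30.3% to 38.5% and C1qc 25.4% to 30.1% in the 6 libraries. The share of C1qa was 36.8% (95% Wilson interval 34.6 to 39.1) in Grin1-null cortex and 36.1% (33.3 to 38.9) in Grin1-null hippocampus. It was 42.2% (40.4 to 44.1) in WT cortical replicate 3 and 41.7% (39.4 to 44.0) in WT hippocampus. WT cortical replicate 1, made with version 2 of the chemistry, had 35.4% (32.1 to 38.7), and WT cortical replicate 2 had 43.5%. The genotypes therefore overlapped in the share of C1qa through WT cortical replicate 1. The share of C1qb was 36.5% (34.3 to 38.8) and 38.5% in the Grin1-null cortical and hippocampal libraries. These lay above the 4 WT libraries among the 6 (30.3% to 34.5%), and this difference was not tested. The interval of WT cortical replicate 1 (31.3 to 37.8) overlapped that of Grin1-null cortex. WT hippocampal replicate 1, left out with 6 cells, held 61, 92 and 72 UMIs of C1qa, C1qb and C1qc. Its share of C1qb was above both Grin1-null libraries. These intervals cover counting error only.

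The receptors and the adaptor lay below C1q. Tyrobp averaged 3393 ± 626 CPM (SD, n = 6 libraries) and Trem2, its partner receptor, 2173 ± 504 CPM. Trem2 lay at 2396, 1221 and 2562 CPM in WT cortical replicates 1, 2 and 3, 2558 CPM in Grin1-null cortex, 2236 CPM in WT hippocampus and 2063 CPM in Grin1-null hippocampus. A single library, WT cortical replicate 2, was low for Trem2, and the others stayed within a narrow band. Csf1r was the steadiest member, at 2656 ± 243 CPM with a coefficient of variation of 9.16%. It ranged from 2439 CPM in Grin1-null hippocampus to 3128 CPM in WT cortical replicate 2.

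Cx3cr1, P2ry12 and Tmem119 varied most among the libraries, with coefficients of variation of 47.9%, 62.8% and 36.1%. Cx3cr1 lay at 1598, 3009 and 4177 CPM in WT cortical replicates 1, 2 and 3, 1228 CPM in Grin1-null cortex, 2724 CPM in WT hippocampus and 1501 CPM in Grin1-null hippocampus. Both Grin1-null libraries were below all WT libraries for this receptor, though WT cortical replicate 1 (95% Poisson interval 1141 to 2176) and Grin1-null cortex (961 to 1546) overlapped within counting error. P2ry12 lay at 5552, 1757 and 1781 CPM in the WT cortical libraries, 1330 CPM in Grin1-null cortex, 2018 CPM in WT hippocampus and 2368 CPM in Grin1-null hippocampus. WT cortical replicate 1 stood above the rest for P2ry12 (interval 4667 to 6555). Tmem119 was likewise highest in WT cortical replicate 1 and lowest in Grin1-null cortex, with 2117, 1072 and 1036 CPM in the WT cortical libraries, 835 CPM in Grin1-null cortex, 1278 CPM in WT hippocampus and 1149 CPM in Grin1-null hippocampus.

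By mean level over the 6 libraries the order was C1qa, C1qb, C1qc, Tyrobp, Csf1r, P2ry12, Cx3cr1, Trem2 and Tmem119. The means of C1qa (10505 ± 1311 CPM), C1qb (9146 ± 2017 CPM) and C1qc (7345 ± 1589 CPM) differed between neighbours by less than the larger SD of each pair. Those of Csf1r, P2ry12 (2468 ± 1549 CPM), Cx3cr1 (2373 ± 1136 CPM) and Trem2 did as well. The step from C1qc to Tyrobp exceeded both SDs, as did those from Tyrobp to Csf1r and from Trem2 to Tmem119 (1248 ± 450 CPM).

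**Figure D2:**
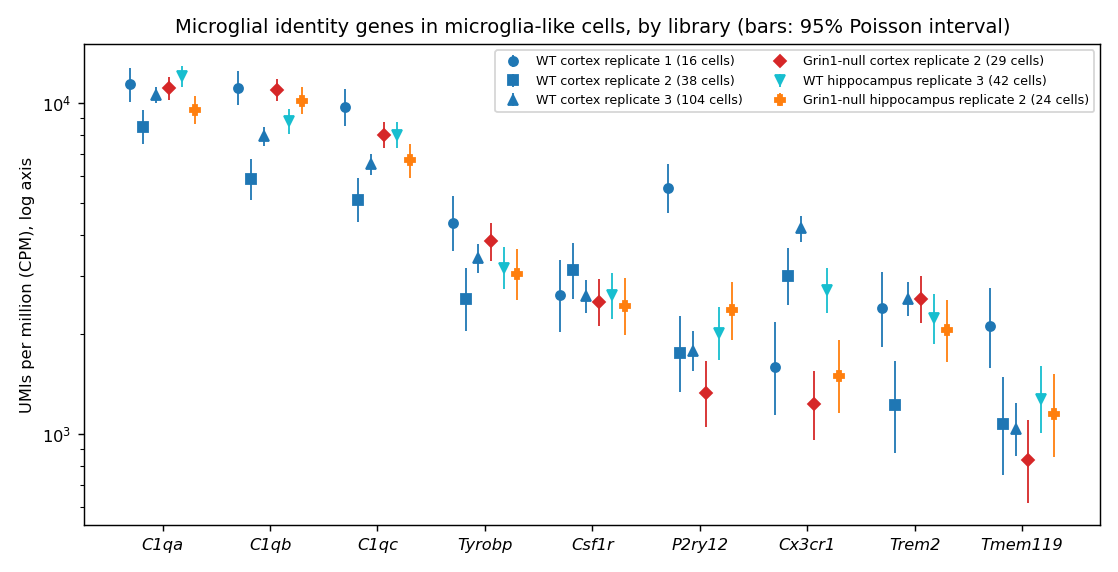
Level of each gene (CPM, log axis) in the microglia-like cells of each of the 6 libraries with at least 10 such cells, with 95% Poisson intervals as bars. C1qa stays between 8460 and 12039 CPM, whereas P2ry12 runs from 1330 to 5552 CPM and Cx3cr1 from 1228 to 4177 CPM.

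The share of microglia-like cells with at least 1 UMI ran in nearly the same order. It was 99.2% for C1qa, 98.5% for C1qb and C1qc, 94.7% for Tyrobp, 93.1% for Csf1r, 88.9% for Cx3cr1, 84.0% for Trem2, 78.6% for P2ry12 and 71.0% for Tmem119. With each cell thinned to 1000 UMIs, which left 166 cells and removed 96, C1qa was found in 98.8%, Cx3cr1 in 83.1%, Trem2 in 86.1%, P2ry12 in 74.1% and Tmem119 in 60.8% of cells. Interneurons, which should lack these genes, gave 0.0957% for C1qa and 0.134% for Trem2 among 10452 cells thinned in the same way. Any background of free RNA is counted in these shares.

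Border macrophages, the macrophages of the meninges and vessels, share many transcripts with microglia, and the cluster held some cells with their markers. Of the 262 cells, 28 carried UMIs of at least 2 of 10 border macrophage markers such as Mrc1 and Pf4, 24 of them of at least 4, and 189 carried none. Pooled over libraries, the C1q genes in these cells had ratios of 0.921 for C1qa, 0.911 for C1qb and 0.948 for C1qc against the remaining cells. P2ry12 was at 525 CPM against 2354 CPM (ratio 0.223), Tmem119 at 189 CPM against 1296 CPM (0.146) and Cx3cr1 at 819 CPM against 3036 CPM (0.270). Trem2 (0.426), Csf1r (0.662) and Tyrobp (0.685) lay between. The cells came from the same cluster and were parted by markers outside the members, so the ratios are given without a test.

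Cx3cr1 and P2ry12 were also lower in these cells inside the 3 libraries with at least 5 of them. In Grin1-null cortex, Cx3cr1 was at 433 CPM in the cells with border markers and at 1474 CPM in the others, and P2ry12 at 793 CPM and 1496 CPM. In WT cortical replicate 3, Cx3cr1 was at 1805 CPM and 4377 CPM, and P2ry12 at 338 CPM and 1903 CPM. In WT hippocampus, Cx3cr1 was at 777 CPM and 3407 CPM, and P2ry12 at 259 CPM and 2635 CPM. C1qa was at 11323 CPM and 10986 CPM in Grin1-null cortex, 9137 CPM and 10686 CPM in WT cortical replicate 3 and 9195 CPM and 13037 CPM in WT hippocampus. C1qb was at 10819 CPM and 11008 CPM, 5527 CPM and 8127 CPM, and 6734 CPM and 9539 CPM in the same libraries, so the C1q genes were not equally close in all of them. The share of such cells differed among libraries. It was 0 of 16 cells in WT cortical replicate 1, 5.26% in replicate 2, 4.81% in replicate 3, 27.6% in Grin1-null cortex, 21.4% in WT hippocampus and 16.7% in Grin1-null hippocampus. The summed level of the 10 markers was 0, 1996 and 1123 CPM in WT cortical replicates 1, 2 and 3, 3904 CPM in Grin1-null cortex, 5969 CPM in WT hippocampus and 2110 CPM in Grin1-null hippocampus. Their part in the differences between libraries was not tested.

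**Figure D3:**
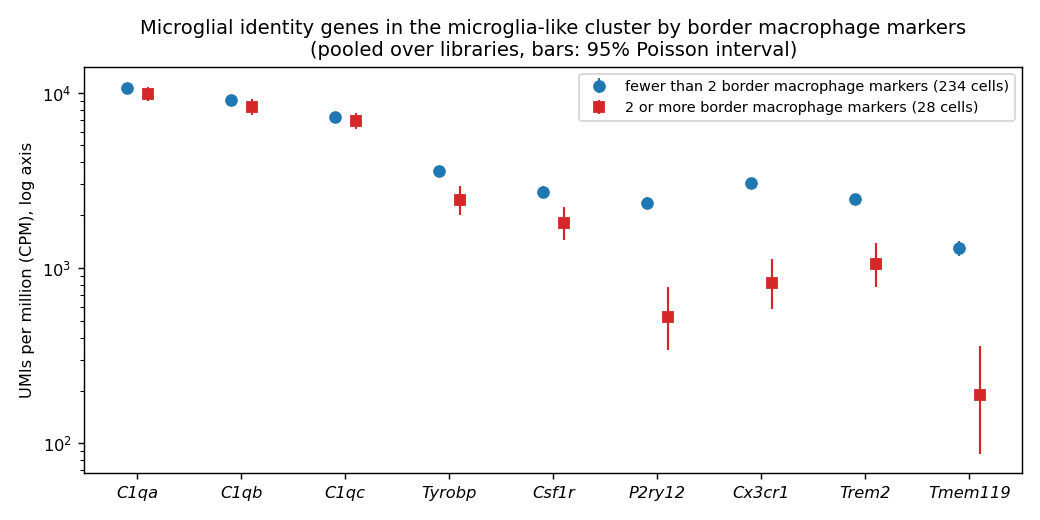
Level of each gene (CPM) in the 28 microglia-like cells with UMIs of at least 2 border macrophage markers and in the other 234 cells, pooled over libraries. The C1q genes lie close together in both sets, whereas Tmem119, P2ry12 and Cx3cr1 are lower in the 28 cells.

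The first comparison asked whether the identity genes differed between WT hippocampus and WT cortex. None of the 9 passed the test in microglia-like cells (edgeR's quasi-likelihood test, with thresholds of 0.01 for the Benjamini-Hochberg adjusted p and 0.1 for the change on the natural-log scale), and 0% of the 1373 genes tested passed. At an unadjusted p under 0.05 there were 20 genes, none a member, and DESeq2 passed 0 genes (2 at an unadjusted p under 0.05). The log2 changes (hippocampus minus cortex) were small: C1qa 0.25 (SE 0.47), C1qb 0.09, C1qc 0.19, Trem2 0.11, Csf1r -0.10, Tyrobp -0.11, Tmem119 -0.11, Cx3cr1 -0.15 and P2ry12 -0.54 (SE 0.68). The adjusted p was 1 for each. The WT hippocampal library lay above all 3 WT cortical libraries for C1qa only and within their range for the other 8. The share of all genes outside that range was not counted. The WT hippocampal group was a single library, assumed to vary like the others. In simulated counts of this design the test found 0%, 20% and 74% of 50 genes planted at 2-, 4- and 8-fold.

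The second comparison asked whether deleting Grin1 in interneurons went with a change in the cortical microglia-like cells. Their own Grin1 alleles cannot be judged from 4 UMIs. None of the 9 members passed, and 0% of the 1373 genes tested passed. At an unadjusted p under 0.05 there were 76 genes, none a member, and DESeq2 passed 0 genes (17 at an unadjusted p under 0.05). Cx3cr1 had the largest log2 change, -1.32 (SE 0.68, adjusted p = 0.887), followed by P2ry12 at -1.17 (SE 0.71, adjusted p = 0.968) and Tmem119 at -0.75 (SE 0.64). C1qa (0.10), C1qb (0.38), C1qc (0.16), Trem2 (0.28), Tyrobp (0.13) and Csf1r (-0.19) were near 0. The Grin1-null cortical library lay below all 3 WT cortical libraries for Cx3cr1, Csf1r, P2ry12 and Tmem119 and within their range for the other 5. How many of all genes lay outside that range was not counted, so this count of members shows no effect of genotype. The Grin1-null group was a single library of 29 cells, so the spread used by the test came from the 3 WT cortical libraries. With simulated counts the test found 2%, 14% and 66% of 50 genes planted at 2-, 4- and 8-fold.

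Leaving out WT cortical replicate 1 moved these values. Cx3cr1 then changed by -1.61, which did not pass the test, and P2ry12 by -0.46. The Grin1-null group stayed at 1 library, and the spread used by the test came from WT cortical replicates 2 and 3 alone. Without cells that carry border macrophage markers the changes were -1.16 for Cx3cr1, -1.07 for P2ry12 and -0.57 for Tmem119. Genes that respond to tissue dissociation, such as Fos, Jun and Ccl3, were summed in the same cells, and 0 of the 19 measured passed the test in cortex, where their median log2 change was 2.42. Their summed level was 439, 9115 and 1474 CPM in WT cortical replicates 1, 2 and 3, 20818 CPM in Grin1-null cortex, 992 CPM in WT hippocampus and 25980 CPM in Grin1-null hippocampus. Both Grin1-null libraries were highest, and WT cortical replicate 2 was well above the other WT libraries. The part of this list in the values of the members was not tested.

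In the hippocampus, 1 Grin1-null library of 24 cells faced 1 WT library of 42 cells, so no test was made in this setting. With sums of at least 5 cells, which adds WT hippocampal replicate 1, edgeR's quasi-likelihood test passed 0 of 1417 genes (63 at an unadjusted p under 0.05). Between the lone libraries, none of the 9 members differed by at least 2-fold, against 26.4% of the 1373 genes. The log2 differences (Grin1-null minus WT) were -0.85 for Cx3cr1, -0.33 for C1qa, -0.25 for C1qc, -0.14 for Tmem119, -0.11 for Trem2, -0.10 for Csf1r, -0.05 for Tyrobp, 0.22 for C1qb and 0.24 for P2ry12. In the same libraries all 19 measured dissociation genes were at least 2-fold higher in the Grin1-null library, and 7 of 8 border macrophage markers at least 2-fold lower. The comparison of regions shares its WT libraries with both comparisons of genotypes.

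**Figure D4:**
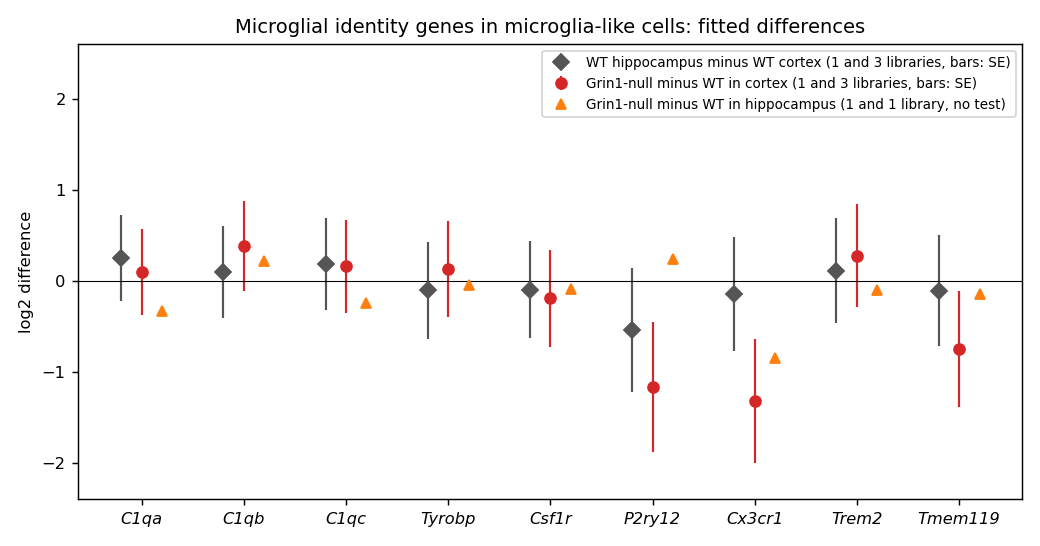
Log2 difference of each gene in microglia-like cells for WT hippocampus minus WT cortex, Grin1-null minus WT in cortex and Grin1-null minus WT in hippocampus, with standard errors where the design allows them. Most values lie near 0, and Cx3cr1 and P2ry12 in cortex lie lowest, at -1.32 and -1.17.

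The partners of the members were present unevenly. Among the ligands, Cx3cl1 (fractalkine) was at 5.79 CPM in microglia-like cells, 312 CPM in glutamatergic cells and 199 CPM in interneurons. Il34 was at 5.79 CPM in microglia-like cells and at 70.5 CPM in glutamatergic cells and 46.1 CPM in interneurons. Csf1 was at 23.2 CPM in microglia-like cells, 41.6 CPM in oligodendrocytes, 43.0 CPM in astrocytes and 27.8 CPM in mural or endothelial cells. For Csf1 the microglial level rests on 8 UMIs (95% Poisson interval 10.0 to 45.6 CPM), and interneurons (1.45 CPM) and oligodendrocyte precursors (14.0 CPM) were lower. Cx3cl1 and Il34, with 2 UMIs each in the cells with the receptors, were higher in both neuronal classes than in those cells. Spi1, which encodes PU.1, was at 492 CPM in microglia-like cells and Irf8, another myeloid factor, at 388 CPM.

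In the complement pathway, the proteases C1ra and C1s1, which act with C1q, and C3 had 0 UMIs in microglia-like cells. These genes stayed at or below 5.45 CPM in every other class. In microglia-like cells 3 UMIs make 8.69 CPM, so the 0 does not set them apart from other classes. C4b was at 8.69 CPM in microglia-like cells, from 3 UMIs, and at 129 CPM in astrocytes. The complement receptor gene Itgam was at 593 CPM. Among purine receptors, Gpr34, P2ry13 and P2ry6 lay at 1731, 290 and 119 CPM. Downstream of Trem2 and Tyrobp, the kinase Syk was at 81.1 CPM and the phosphatase Inpp5d at 345 CPM. Apoe, a lipid carrier that Trem2 binds, was at 12356 CPM in microglia-like cells and 39995 CPM in astrocytes. The receptor Tgfbr1, part of the signal that maintains microglial identity, was at 787 CPM and the factor Sall1 at 249 CPM.

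No gene of these pathways passed the test in microglia-like cells, where 0% of all genes tested passed as well. In both tested comparisons, 0 of 6 measured complement genes, 0 of 6 genes of the Csf1r pathway, 0 of 4 of the fractalkine and purine list, 0 of 6 of the Trem2 and DAP12 list and 0 of 5 of the TGF-beta list passed in either direction. The median log2 change of the 9 members was -0.10 between regions and 0.10 between genotypes in cortex, beside -0.08 and -0.11 over all genes tested. The 16 other microglial markers had medians of -0.21 and -0.33. Monocyte and neutrophil markers had at most 6 UMIs and lymphocyte markers at most 1 UMI in any of the 6 libraries. Border macrophage markers (8 measured) were higher in WT hippocampus than in WT cortex for all 8, with a median of 2.06, though none passed.

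The 10 other genes with the pattern most like the members' mean were Ly86, Gpr34, Fcrls, Selplg, Siglech, Mpeg1, Cd37, Hcls1, Fcgr1 and Emr1. Their Pearson correlations ran from 0.993 to 0.997 over 57 sums of a class within a library, on the log2(CPM + 1) scale. Only 6 of these sums were microglial, and sums of 1 library share its depth, so the values rest on a single contrast between classes. The members themselves ran from 0.965 for P2ry12 to 0.995 for C1qa.

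UMIs of the members outside microglia-like cells were few and uneven. Among the cells that held any, 306 held 1 member, 9 held 2 and 15 held at least 3. Those 15 cells carried 60.5% of the members' UMIs outside the class, 13 of them lay above the median UMI count of their class, and Scrublet marked 4 as doublets. They were 6 interneurons, 5 cells of unnamed clusters, 3 oligodendrocytes and 1 oligodendrocyte precursor, and 8 came from WT cortical replicate 3, which also gave the most microglia-like cells. The mural and endothelial class held 0 UMIs of every member. Trem2 was at 2.29 CPM in glutamatergic cells and Csf1r at 4.54 CPM in choroid or ependymal cells. C1qa was at 2.62 CPM in oligodendrocyte precursors, all of it (28 UMIs) from the 1 precursor that held all 9 members. P2ry12 was at 4.77 CPM in astrocytes and at 0.911 CPM in oligodendrocytes, from 43 UMIs. Its host gene Med12l was at 3.96 CPM in oligodendrocytes and 15.1 CPM in astrocytes.

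Trem2 was the member least confined to microglia-like cells. They held 83.5% of its UMIs, against 91.0% to 96.3% for the other members. Of the 155 Trem2 UMIs elsewhere, 82 (52.9%) were in 1 interneuron cluster of 717 cells, led by Th, the gene for tyrosine hydroxylase. Trem2 was at 11.6 CPM there (95% Poisson interval 9.21 to 14.4) and found in 66 cells (9.21%). Grin1-null cortical replicate 2 gave 49 of the 82 UMIs, and without it, a step chosen after seeing the data, the level was 6.82 CPM (4.70 to 9.58) and 4.79% of 543 cells held a UMI. These intervals cover counting error only. In the other 10342 interneurons it was at 0.557 CPM, and their median depth was 7520.5 UMIs against 8887 in the cluster. The same cells held 3 UMIs of Csf1r, 2 each of C1qa and Tyrobp, 1 each of C1qc and P2ry12 and 0 of C1qb, Cx3cr1 and Tmem119. The neighbouring genes Treml1 and Treml2 had 2 and 3 UMIs. In microglia-like cells C1qa had 3645 UMIs and Trem2 784. Where the Trem2 UMIs of this interneuron cluster come from was not tested. The cluster was picked after its Trem2 level was seen, so no test is given.

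By library, Trem2 in the Th-led cluster was at 16.1, 2.16 and 8.29 CPM in WT cortical replicates 1, 2 and 3 (11, 1 and 12 UMIs). It was at 0 CPM in Grin1-null cortical replicate 1, which had 6 such cells, and at 21.9 CPM (49 UMIs in 174 cells) in replicate 2. In WT hippocampus it was at 3.84, 0 and 0 CPM in replicates 1, 2 and 3, from 1 UMI in all. In Grin1-null hippocampus it was at 0 CPM in replicate 1 and at 6.86 CPM (8 UMIs) in replicate 2. Cortical libraries held most of the UMIs. Among libraries with at least 10 such cells, the 1 Grin1-null cortical library lay above all 3 WT ones, and the genotypes overlapped in hippocampus.

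**Figure D5:**
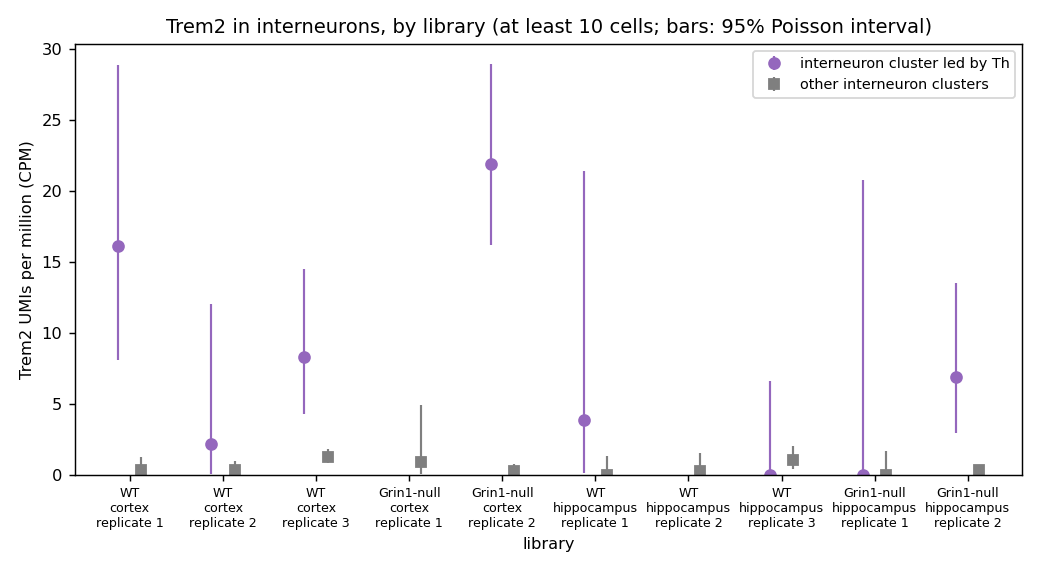
Trem2 (CPM) in the Th-led interneuron cluster and in the other interneurons, 1 point per library with at least 10 such cells, with 95% Poisson intervals as bars. The highest value is 21.9 CPM in Grin1-null cortical replicate 2, and the other interneurons stay at or below 1.24 CPM in all libraries.

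Summed over all interneurons, only C1qa, C1qb and Trem2 passed the filter on low counts, and none of the 3 passed the test in any comparison. Of the 13814 genes tested, 0.282% passed between WT hippocampus and WT cortex, 0% between genotypes in cortex and 0% between genotypes in hippocampus. Grin1 itself therefore did not pass in edgeR, though its levels did not overlap between genotypes. In simulated counts, the test between genotypes in cortex found 4% of 50 genes planted at 2-fold and 78% of 50 planted at 4-fold. In the genotype comparisons, 296 genes in cortex and 462 in hippocampus had an unadjusted p under 0.05, and DESeq2 passed 1 gene in each. Trem2 was at 1.95, 0.42 and 1.72 CPM in WT cortex, 0.82 and 3.77 CPM in Grin1-null cortex, 0.33, 0.27 and 0.92 CPM in WT hippocampus and 0 and 0.59 CPM in Grin1-null hippocampus. Its log2 change was -1.27 (SE 0.83, adjusted p = 0.830) between regions, 1.03 (SE 0.76) between genotypes in cortex and -0.33 (SE 1.01) in hippocampus. The cortical change turned negative without Grin1-null cortical replicate 2. The hippocampal change turned positive with a single library left out or with the replicate number as a block. C1qb had 0 UMIs in both Grin1-null cortical libraries and 24 of its 33 UMIs in WT cortex in replicate 3. For Trem2 the interaction of genotype and region was -1.36 (SE 1.28), which did not pass edgeR's quasi-likelihood test. The interneuron sums include the 6 cells with at least 3 members, without which only Trem2 passed the filter on low counts.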

How the data were processed

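Single cells sorted for TdTomato were sequenced by the authors in 4 groups. The deposited matrices hold UMI counts, which the authors made with Cell Ranger (version 2.1.1 in the processing notes, 3.0.2 in the matrix headers) on mm10 with gene ends extended downstream. Libraries were told apart by barcode suffix and matched to replicates by the barcode numbers in the methods. Filtering kept cells in which 200 to 6000 genes were detected and the mitochondrial share of UMIs was under 30%. Seurat 5.3.0 in R 4.3.3 integrated the 4 matrices over 25 dimensions and clustered at resolution 1, with the 9 members left out of the 2000 features. A cluster led by Oxt and Avp was set to unnamed after its leading genes were seen. Scrublet (scanpy 1.11.5) marked 249 doublets, which were kept except in an alternative.

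Each class's UMI counts were added up within a library, with at least 10 cells per sum, and tested with edgeR 4.0.16 (TMM, filterByExpr, quasi-likelihood test, 1 model over 4 groups, Benjamini-Hochberg adjustment over all genes). The 6 microglial sums leave 2 residual degrees of freedom, all from WT cortex. Genotype in hippocampus had 1 library a side and got no test, in place of the test that had been planned. Libraries pool animals, so p-values measure the spread between libraries. Alternatives included DESeq2 1.42.0, library-size scaling, no filter on low counts, other class definitions and single libraries left out. In microglia-like cells only the WT cortical libraries were left out in turn. Fits were tested on simulated data. Named genes included the 9 members, the 10 genes most like them and genes of the partner and marker lists, whether or not they passed. The members, lists and comparisons were chosen with earlier results of these data known.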

Additional observations from a re-analysis of the deposited data

Results flagged for a closer look

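P2ry12 in microglia-like cells went in opposite directions in the regions. The log2 ratio of CPM (Grin1-null over WT) was -1.19 in cortex, where the Grin1-null library lay below all 3 WT libraries, and 0.23 in hippocampus, with 1 library of each genotype. The difference between regions was not tested. WT cortical replicate 1, at 5552 CPM, raises the cortical WT mean, and without cells that carry border macrophage markers the fitted hippocampal difference was -0.0036.

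The members also appeared in barcodes that the cell filter removed, in 1 of the 4 groups. In the 384 barcodes left out of Grin1-null hippocampus they came to 1.35 CPM (5 UMIs of 3699033). In those left out of WT hippocampus they had 0 of 205969 UMIs, which allows up to 14.6 CPM, so no difference from WT can be read at this depth. Those left out of WT cortex (0 of 877131 UMIs) and Grin1-null cortex (0 of 1055907 UMIs) held none either.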

How the results depend on the processing

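Of 79 alternatives to the counts of members past the test or the 2-fold rule and to their summed level, 77 stayed on the same side or within the spread. With cells taken by single-cell markers (455 cells, of which 194 lie outside the cluster) the summed level was 8812 CPM against 41306. Without cells carrying border macrophage markers, 1 member (Cx3cr1, -1.04) differed by at least 2-fold in hippocampus, against 0 in the main setting. So did 242 of all 977 genes there, between 1 library of each genotype and with no test.

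The direction turned in 38 values, none of which passed. Between regions in microglia-like cells, sums of at least 5 cells gave -0.24 for C1qa, -0.0092 for C1qb, -0.010 for C1qc and -0.19 for Trem2. Sums of at least 20 cells gave 0.14 for P2ry12, 0.23 for Tmem119 and 0.034 for Tyrobp. Single-cell markers gave -0.87 for C1qa, -0.68 for C1qb, -0.71 for C1qc and -0.87 for Trem2. Without border macrophage cells Cx3cr1 was 0.093, Csf1r 0.086 and Tmem119 0.25. Without the low-count filter Csf1r was 0.033, Tmem119 0.035 and Tyrobp 0.012. Between genotypes in cortex, single-cell markers gave -2.06 for C1qa, -1.78 for C1qb, -2.02 for C1qc, -1.91 for Trem2 and -2.06 for Tyrobp, and no low-count filter gave 0.023 for Csf1r. The single-cell rule took in cells of other classes, among them 109 oligodendrocytes and 66 interneurons, so its values are not those of microglia-like cells alone. It took 847520 UMIs in Grin1-null cortical replicate 2, against 58651 in the cluster. In WT cortical replicates 1, 2 and 3 it took 75052, 102419 and 322894 UMIs, against 25037, 33571 and 113952. The cause of the turned directions was not tested.

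With 1 library left out, the region change ran from -0.069 to 0.29 for C1qb, -0.17 to 0.020 for Csf1r, -0.46 to 0.26 for Cx3cr1, -0.77 to 0.14 for P2ry12, -0.23 to 0.23 for Tmem119, -0.14 to 0.39 for Trem2 and -0.25 to 0.034 for Tyrobp. In interneurons Trem2 ran from -0.70 (without Grin1-null cortical replicate 2) to 1.42 in cortex and from -5.16 to 0.60 in hippocampus, and C1qb from -6.82 to 0.64 in hippocampus. Groups at or near 0 UMIs set the values below -5, which measure no size of change. Leaving out interneurons with at least 3 members, an alternative chosen after seeing the data, gave 1.04 for Trem2 in hippocampus.

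The replicate number as a block gave in interneurons 2.22 for C1qa in cortex, and in hippocampus 0.97 for C1qa, 0.027 for C1qb and 0.30 for Trem2. Same-numbered libraries correlated at 0.069 to 0.717 over 13 pairs, 12 of them over 0.1, and 10 of 10 libraries were closest to their own number. Every replicate 1 was made with version 2 of the chemistry and every other library with version 3. In microglia-like cells, with sums of at least 10 cells, the block left no residual degrees of freedom. It could therefore be fitted there but not tested. A block with sums of at least 5 cells was not tested.

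Adjusted p over all alternatives ran from 0.0490 to 1 for members in microglia-like cells and from 0.325 to 1 in interneurons. Counts over all genes moved more. With a WT cortical library left out, the spread in microglia-like cells rested on the remaining WT cortical libraries alone. In microglia-like cells, 0 became 8 between regions without WT cortical replicate 1, and 0 became 27, 25 and 14 between genotypes in cortex without WT cortical replicate 1, without replicate 2 and without the low-count filter. In interneurons between regions, 39 became 228 with DESeq2, 387 without the filter and 109 with the block. It fell to 1 without WT cortical replicate 3, 6 without WT hippocampal replicate 3, 9 without WT cortical replicate 2, 12 without WT cortical replicate 1 and 23 without WT hippocampal replicate 1. The stricter cell filter left 41 microglia-like cells, at most 15 in 1 library, and gave no value. Depth limits detection: thinned to 500 UMIs, Tmem119 was found in 45.0% of cells and C1qa in 98.4%.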

Other observations

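Grin1-null cortical replicate 1 gave only 2 microglia-like cells and WT hippocampal replicates 1 and 2 gave 6 and 1, so these libraries entered no main comparison of the members in microglia-like cells. All 10 libraries entered the comparisons in interneurons.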
